A study of Danio rerio with 12 samples.

Results

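The 3 arrays that carry replicate number 2, from 1 control, 1 MO-1 and 1 MO-2 sample, were compared with the 6 arrays that carry replicate number 1 or 3. The arrays were grouped by the replicate number in the sample titles and by no measured value, out of 12 arrays in all. The comparison itself was chosen with earlier results of these data known. The 3 arrays that carry number 4 were not used. Every array held RNA of GFP-positive cells that had been collected by flow sorting from zebrafish embryos at 48 hours after fertilization. All embryos carried flk1:GFP, a transgene that labels endothelium, the cell layer that lines blood vessels. MO-1 and MO-2 embryos had been injected at the 1-cell stage with 4 ng of either of 2 independent morpholinos, antisense oligonucleotides that block the processing of the precursor of the endothelial microRNA miR-126. The label of control replicate 1 says that these embryos were uninjected, nothing about injection is said for control replicates 2 and 3, and no label names a control oligonucleotide. The labels call the replicates biological, but do not say whether a replicate number stands for a day, a clutch or a sort, nor how many embryos a sample pooled.

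A sort for GFP enriches endothelial cells from a dissociated embryo, and a sorted sample can also hold cells of other tissues and RNA that was free in the suspension. Neither was measured for these samples. At this stage the trunk is largely skeletal muscle, in which thick filaments of myosin slide along thin filaments of actin, anchored at the Z disc, when calcium leaves the sarcoplasmic reticulum. Epidermis, kidney tubule, notochord and neural tube are other large sources of RNA in such an embryo. In RNA of a whole sorted sample, fewer cells of a type and less RNA per cell cannot be told apart.

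Values are log2 signals of probe sets, normalized across arrays by the authors, and a change is the mean of the 3 replicate 2 arrays minus the mean of the 6 others, with the treatment group as a covariate. Median signals of the 9 arrays lay between 6.81 and 6.85, and any pair of arrays correlated at 0.957 to 0.992 over 15502 probe sets. The array holds a control probe set for an enhanced GFP, which read 6.10 to 6.44 in the replicate 2 arrays and 6.23 to 6.63 in the other 6. All of these signals lay below the array medians, and whether this probe set detects the transgene was not tested. They are therefore no measure of the GFP content of the sorts. No probe set for miR-126 was examined, so the targeted microRNA gives no check of the labels here. A gene is called when limma's p, adjusted by the Benjamini-Hochberg method over all 15502 probe sets, is under 0.05. For each of 8793 genes the brightest of its probe sets was used.

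Of 15502 probe sets, 142 (0.916%) were called higher in the replicate 2 arrays and 22 (0.142%) were called lower, while 1444 had an unadjusted p under 0.05. By gene, 109 (1.24% of 8793) were called higher and 12 (0.136%) lower, and 82 of the 109 changed by 1 log2 unit or more. In each of these 121 genes the replicate 2 array lay beyond both other arrays of its own group in all 3 groups. The genes were called from the same arrays, so this and later remarks on overlap describe the calls and add no support. With the replicate number as a block of 3 levels, which takes the difference between replicates 1 and 3 out of the spread, 286 probe sets were called, 246 higher and 40 lower, and the 121 genes were all among those called. Below, not called refers to the comparison without the block unless stated, and some such genes were called with it. The calls needed all 3 replicate 2 arrays: 1 probe set was called without control replicate 2, 2 without MO-1 replicate 2 and 21 without MO-2 replicate 2, with none of the 121 genes reversed in direction. The 3 arrays may share a source, and the p-values measure only the spread between these arrays.

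Skeletal muscle genes made up the largest group among the higher calls that any list described. Across 4 lists of muscle fibre genes (thick filament and Z disc, thin filament, calcium handling and excitation, energy supply), 21 of 70 measured genes rose in the replicate 2 arrays and none fell, against 109 and 12 of 8793 genes in all. Of the 70, 65 had a positive change, and their median change was 1.1, beside 3600 of 8793 and -0.04 for all genes. These lists were chosen with earlier results of the same data known, so their direction is a description. A list score was taken as the mean over genes of the signal minus the gene's mean over the 9 arrays. For the 70 genes the replicate 2 arrays scored 0.535 (control), 0.779 (MO-1) and 0.844 (MO-2). In the same order of groups it was -0.155, -0.582 and 0.080 in replicate 1, and in replicate 3 it was -1.004, -0.631 and 0.134. The replicate 2 arrays were the 3 highest, and within each replicate number the MO-2 array was the highest of its 3.

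**Figure D1:**
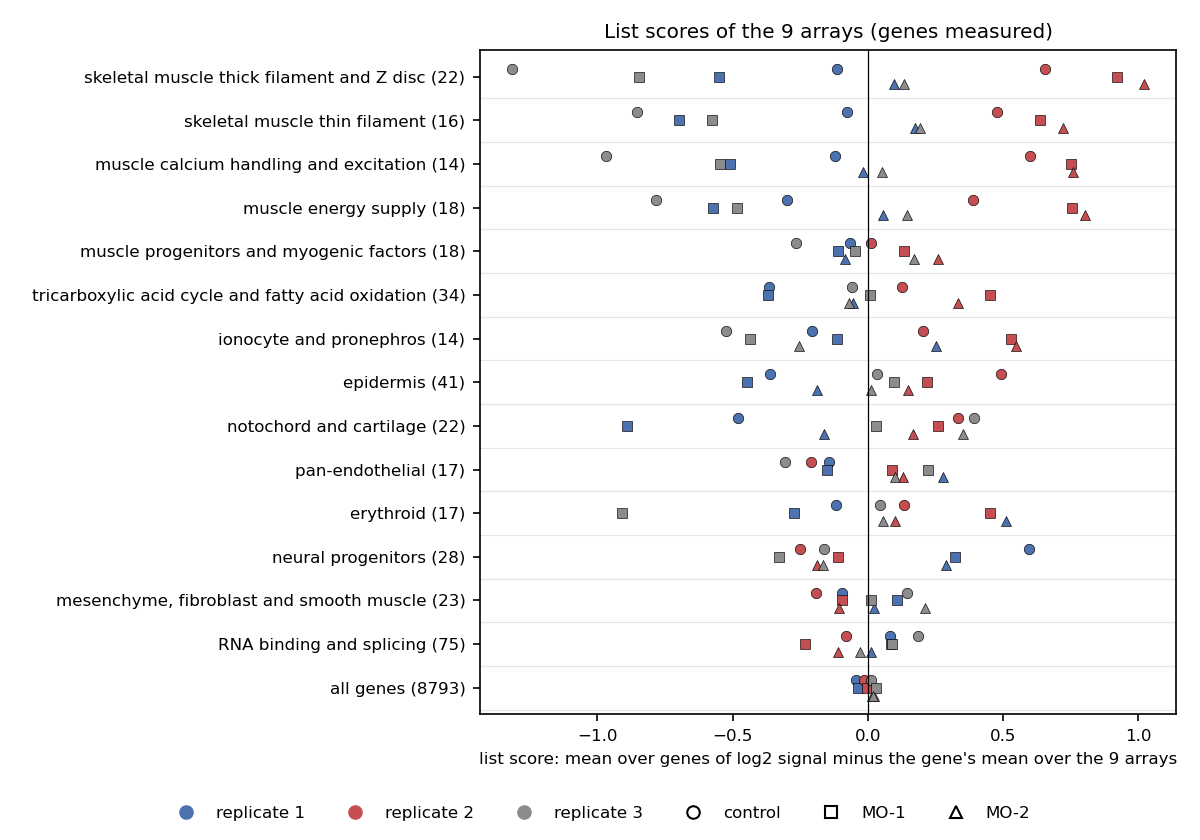
Scores of 14 gene lists and of all genes in the 9 arrays, with the number of measured genes in brackets; the horizontal axis is the mean over genes of log2 signal minus the gene's own mean, colour gives the replicate number and shape the treatment group. The 3 replicate 2 arrays lie to the right of all others in the 4 muscle fibre lists, while the pan-endothelial scores of replicate 2 (-0.211 to 0.128) lie inside the range of the others (-0.308 to 0.277).

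Thick filament and Z disc genes had the largest median change of any list, 1.31, and 8 of 22 measured genes rose. Titin gene ttn.2 codes for the elastic protein that spans the sarcomere from the Z disc to its centre. Its replicate 2 signals, always given here in the order control, MO-1, MO-2, were 10.34, 10.54 and 10.48. Its lowest, median and highest signals in the other 6 arrays were 5.86, 8.17 and 8.58. All 3 replicate 2 arrays were above the 6 others, and the change was 2.89 (SE 0.57, adjusted p = 0.0497, 7.43-fold). Its 3 further probe sets changed by 2.65, 1.01 and 2.11, of which the first 2 were called. The gene of the Z disc actin crosslinker alpha-actinin 3, actn3b, read 7.93, 8.94 and 8.92 in replicate 2 and 5.79 to 7.69 with a median of 6.5 in the others, without overlap (change 1.89, SE 0.28, adjusted p = 0.0178). Nebulin (neb, 2.06), desmin (desma, 1.83), the Z disc proteins ldb3a (1.64) and ldb3b (2.13), the myosin light chain myl10 (2.28) and the myosin chaperone hsp90aa1.1 (1.24) also rose. The fast and slow myosin heavy chain genes myhz1.3 and smyhc1, with changes of 1.37 and 1.52, were not called (adjusted p = 0.18 and 0.12).

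Among thin filament genes, 5 of 16 rose and the median change was 1.06. Fast muscle troponin T gene tnnt3a read 11.07, 11.01 and 11.33 in replicate 2 and 8.49 to 10.22 with a median of 9.16 in the other arrays. The groups did not overlap, and tnnt3a rose by 1.83 (SE 0.28, adjusted p = 0.0196). Skeletal actin gene acta1a rose by 1.74, tropomodulin gene tmod4, whose product caps the pointed end of actin filaments, by 1.01, and troponin T gene tnnt2c by 0.68. Actin gene actc1a rose by 1.80, although MO-2 replicate 3 at 11.20 lay above control replicate 2 at 10.96. The control probe sets for acta1 at the 3' and 5' ends of the transcript differed by 2.98, 2.5 and 2.69 in replicate 2 and by 2.64 to 3.46 in the other 6 arrays. The same difference for GAPDH was 0.781, 1.57 and 1.12 in replicate 2, 1.33, 1.07 and 1.15 in replicate 1 and 1.82, 1.68 and 1.79 in replicate 3, whose 3 arrays were the highest.

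Calcium handling and excitation genes followed, with 4 of 14 higher and a median change of 1.07. Parvalbumin gene pvalb4, coding for a calcium buffer of fast fibres, read 11.03, 11.26 and 11.59 in replicate 2 and 7.32 to 10.62 with a median of 9.01 in the others (change 2.30, SE 0.40, adjusted p = 0.0295). Calsequestrin gene casq2, coding for the calcium store protein of the sarcoplasmic reticulum, read 8.76, 9.47 and 9.40 against 7.20 to 8.06 with a median of 7.85 (change 1.43, SE 0.19, adjusted p = 0.0143). Both genes separated the 3 arrays from the 6 others, casq2 with the narrower spread in the 6. A second parvalbumin gene, pvalb3, rose by 1.09 and the muscle acetylcholine receptor subunit gene chrna1 by 1.06. The calcium pump genes atp2a1 and atp2a1l, with changes of 1.751 and 1.87, were not called (adjusted p = 0.147 and 0.0774). With the block both were (adjusted p = 0.0476 and 0.00378). Outside the lists, tmem38a, which codes for a cation channel of the sarcoplasmic reticulum, read 7.27, 8.06 and 8.28 against 5.36 to 6.67 with a median of 5.82 and rose by 1.92 (SE 0.20, adjusted p = 0.00741).

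Of the energy supply genes of muscle, 3 of glycolysis and an adenylate kinase gene rose. Aldolase gene aldoab read 10.69, 11.27 and 11.52 in replicate 2, and 7.49, 8.55 and 10.29 as lowest, median and highest of the others (change 2.405, SE 0.323, adjusted p = 0.0143). The muscle phosphoglycerate mutase gene pgam2 read 9.34, 9.98 and 10.28 against 6.40 to 8.96 with a median of 7.34 (change 2.33, SE 0.30, adjusted p = 0.0136). In both genes the arrays nearest to replicate 2 were those of MO-2, and no array of the 6 reached the lowest of the 3. Muscle phosphofructokinase gene pfkma rose by 1.46 and adenylate kinase gene ak1 by 1.42, so 4 of 18 energy supply genes were called, with a median change of 0.89. The creatine kinase genes ckma and ckmb, which code for the enzyme that buffers ATP from phosphocreatine, had changes of 1.61 and 1.62 and were not called (adjusted p = 0.0562 and 0.0786). With the block both were (adjusted p = 0.0229 and 0.0232).

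A wider list of 40 glycolysis and hypoxia genes shares aldoab, pgam2 and pfkma with the muscle list. In it 6 genes rose, including these, beside 109 of 8793 in all, and the median change was 0.16. The others were gapdh, the glucose phosphate isomerase gene gpib (1.16) and the lactate transporter gene slc16a3b (1.11). The glyceraldehyde phosphate dehydrogenase gene gapdh read 10.95, 11.49 and 11.75 in replicate 2 and 8.62 to 10.38 with a median of 9.20 in the other arrays, without overlap (change 1.99, SE 0.21, adjusted p = 0.00741, 3.98-fold). The array's own control probe set for GAPDH at the 3' end was not tested and differed from it: it read 10.58, 10.05 and 10.41 in replicate 2 and 10.45 to 11.53 in the 6 others. Another gene of this list, gapdhs, read 10.80, 10.13 and 10.52 in replicate 2 and 10.59 to 11.57 in the 6 others. Its change was -0.55 (adjusted p = 0.508). These signals lay close to those of the control probe set, and both were highest in the replicate 3 arrays. Which transcript each of the probe sets measures was not tested. A regulator of glycogen synthesis, ppp1r3cb, which targets protein phosphatase 1 to glycogen, had the lowest adjusted p of all genes with a single symbol, together with zgc:174938, for which no role is given. Its signals were 6.59, 7.01 and 6.82 in replicate 2 and 4.89 to 5.65 with a median of 5.06 in the others (change 1.65, SE 0.16, adjusted p = 0.0064).

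In mitochondrial pathways the shift was small and ran in one direction over most genes. All 34 measured genes of the tricarboxylic acid cycle and fatty acid oxidation had a positive change. Their median was 0.45, beside -0.04 over all probe sets. Of the 34, 1 was called, beside 109 called higher of 8793 genes in all, so this call is not a result about the list. That gene was cpt1b, the muscle form of the enzyme that admits fatty acids to the mitochondrion, which read 5.30, 5.58 and 5.66 against 3.64 to 4.91 with a median of 3.98 (change 1.36, SE 0.18, adjusted p = 0.0143). Of 87 oxidative phosphorylation genes, 82 had a positive change, the median was 0.22 and none was called, with 1 called in the block fit: the complex IV subunit gene ndufa4b, with a change of 1.27 (adjusted p = 0.149, and 0.00648 with the block). The median half-width of a 95% interval was 0.37 log2 over all probe sets, so changes of this size lay mostly below what single genes could show.

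Of 18 transcription factors and progenitor genes of the muscle lineage 3 rose, beside 109 of 8793 genes in all. The genes myod1, myog and myf6, which drive the differentiation of committed muscle cells, rose by 1.01, 1.11 and 1.1. For myod1 the signals were 6.13, 6.47 and 6.84 in replicate 2 and 5.03 to 5.82 with a median of 5.53 in the others, and the groups did not overlap. For myf6 they overlapped: MO-2 replicate 3 at 6.40 lay above MO-1 replicate 2 at 6.32. The other 15 of 18 genes in this list were not called, among them the early lineage genes myf5 (0.30), pax3a (0.10) and pax7a (-0.22), and the list median was 0.12. Outside the lists, rbfox1l, a regulator of splicing in zebrafish muscle, read 9.25, 9.22 and 9.82 against 7.10 to 8.16 with a median of 7.73 and rose by 1.746 (SE 0.22, adjusted p = 0.0131). In the list of heart genes the changes went both ways: actc1a rose and hand2 fell, the other 10 of 12 were not called, and the median was -0.04.

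**Figure D2:**
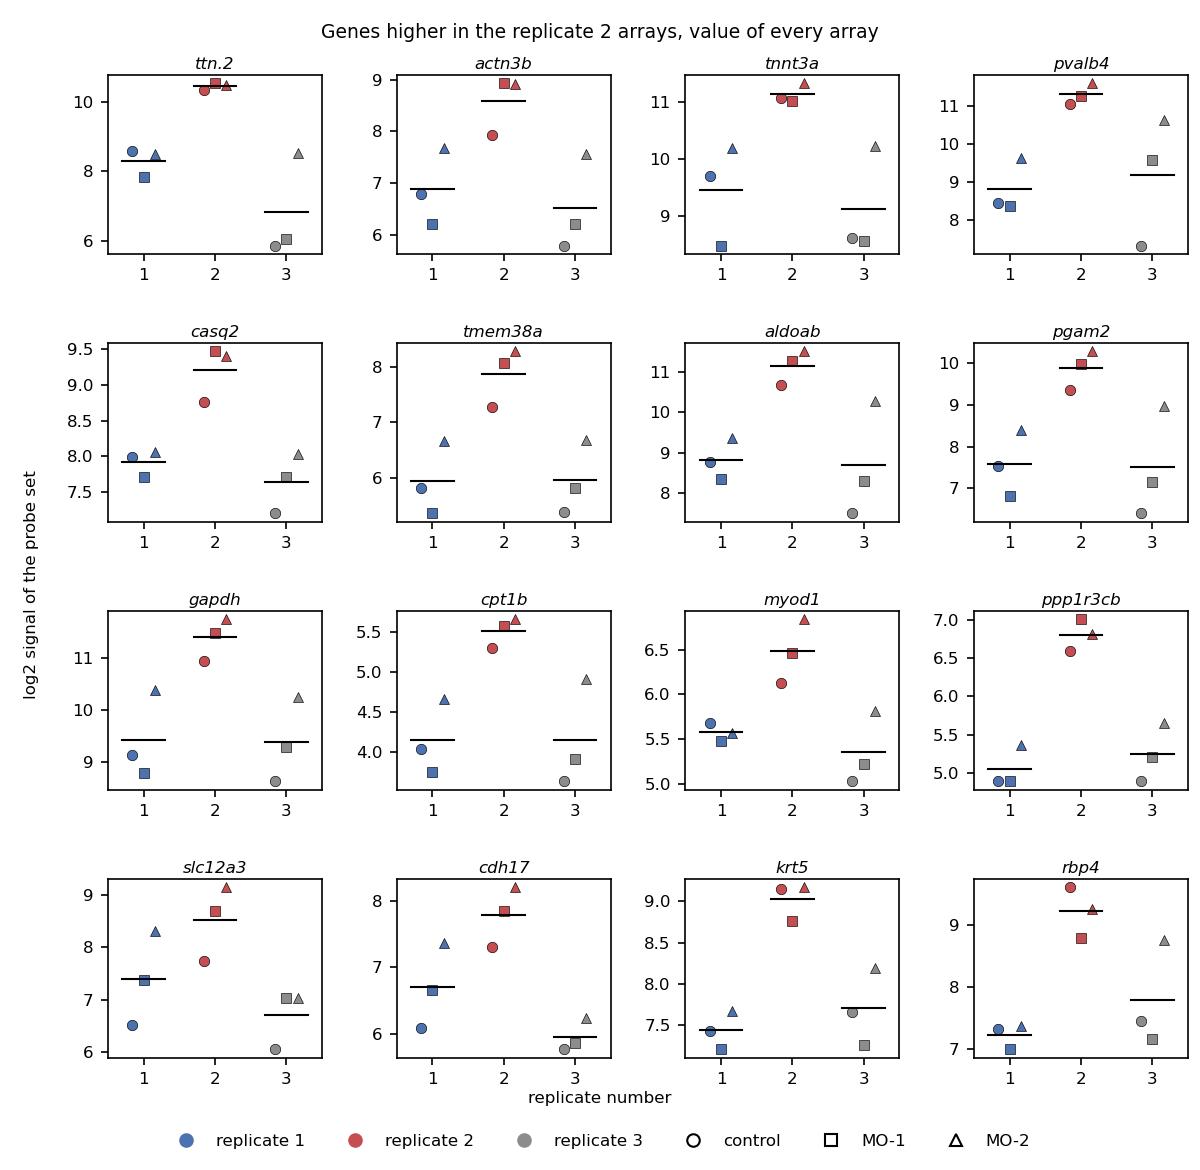
Log2 signal of 16 genes called higher in the replicate 2 arrays, by replicate number; shape gives the treatment group and the bar the mean of 3 arrays. In 14 of the 16 all replicate 2 arrays lie above the 6 others, and in slc12a3 and cdh17 MO-2 replicate 1 lies above control replicate 2.

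Ionocyte and kidney tubule genes were the second group with several calls: 5 of 14 rose, beside 109 of 8793 in all. The median change was 0.48. The sodium chloride cotransporter gene slc12a3, expressed in the distal tubule and in ionocytes, read 7.73, 8.69 and 9.15 in replicate 2 and 6.05 to 8.32 with a median of 7.03 in the others (change 1.47, SE 0.25, adjusted p = 0.0295). The tubule cadherin gene cdh17 read 7.31, 7.84 and 8.21 against 5.77 to 7.37 with a median of 6.17 (change 1.45, SE 0.26, adjusted p = 0.0333). In both genes MO-2 replicate 1 lay above control replicate 2, and the shift within each group was close to the same: for slc12a3 it was 1.45 in the controls, 1.49 with MO-1 and 1.47 with MO-2. A second probe set of slc12a3 was not called, with a change of 1.14 (adjusted p = 0.0514). The sodium pump subunit gene atp1a1a.4 rose by 1.55, the carbonic anhydrase gene ca2 by 1.47 and the chloride channel gene clcnk by 0.92, and the sodium pump subunit gene atp1a1a.3, which is in no list, by 2.09. In atp1a1a.4 and clcnk too MO-2 replicate 1 (10.18 and 7.66) lay above control replicate 2 (9.885 and 7.37). For clcnk MO-2 replicate 3 (7.53) did as well. Transcription factors of the kidney rudiment did not pass: the change was 0.36 for pax2a, 0.33 for pax8, -0.13 for lhx1a and -0.36 for wt1a.

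Of 41 epidermal genes, 33 had a positive change with a median of 0.34. In this list 3 genes were called higher, beside 109 of 8793 in all. The keratin gene krt5 read 9.16, 8.77 and 9.18 in replicate 2 and 7.21 to 8.20 with a median of 7.54 in the others, without overlap (change 1.46, SE 0.16, adjusted p = 0.00741). The tight junction gene cldn3c rose by 1.199 and the membrane protease gene tmprss13b by 0.78, although 2 further probe sets of tmprss13b had changes of 0.28 and 0.02. Keratin gene krt1-19e had the largest change of the list, 2.196, and was not called by its brightest probe set (adjusted p = 0.0618), while another of its probe sets was, with a change of 2.385 (adjusted p = 0.0131). With the block the brightest probe set was called too (adjusted p = 0.00378). Some members stood apart mainly from replicate 1. From replicates 1 and 3 to 2 the changes were 2.06 and 0.52 for krt1-19d and 1.58 and 0.58 for anxa1c. For krt5 they were 1.595 and 1.326, for cldn3c 0.99 and 1.41 and for krt1-19e 1.51 and 2.88. Genes expressed throughout embryonic epithelium were not called: epcam had a change of 0.01 (95% interval -0.288 to 0.303), cdh1 of 0.11 and krt8 of 0.08. Among the members with a negative change were cldni (-0.51), krt18b (-0.48) and tp63 (-0.33), none of them called.

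Single genes rose in 5 other lists, which hold 42, 24, 22, 38 and 69 measured genes in the order below. Over all 8793 genes 1.24% were called higher, so a single call in such a list is not a result about the list. They were rbp4, the retinol carrier gene in the list for liver, gut and yolk, the carboxypeptidase gene cpa5 in that for pancreas, f13a1b, coding for a subunit of coagulation factor XIII, the clock repressor gene bhlhe40 and the poly(A)-binding protein gene pabpc4 among translation factors. For rbp4 the signals were 9.62, 8.80 and 9.26 in replicate 2 and 6.99 to 8.76 with a median of 7.35 in the others, MO-2 replicate 3 being the 8.76 (change 1.72, SE 0.28, adjusted p = 0.027). The rest of those lists was not called, and their medians were -0.09 for liver, gut and yolk, -0.12 for pancreas, -0.11 for complement and coagulation, 0.08 for the clock and -0.09 for translation factors. Of f13a1b, 2 further probe sets were not called, with changes of 0.95 and 0.53. In the heat shock and chaperone list 2 of 36 genes rose, hsp90aa1.1, which the thick filament list also holds, and the small heat shock gene hspb8 (0.89), and the median was -0.10. In the erythroid list 2 of 17 genes rose, ca2, which the ionocyte list also holds, and the nucleotidase gene nt5c3a (0.97). A second probe set of each was not called, with changes of 0.60 for ca2 and 0.88 for nt5c3a. The list median was 0.38, which was -0.13 without MO-1 replicate 2. The globin genes hbbe3 and hbae3 gave wide intervals, with changes of 0.54 (SE 0.79) and 0.38 (SE 0.50) and MO-1 replicate 3 as the lowest array in both.

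Further genes with large changes stand in no list, as did 66 of the 109 higher genes. The largest of all was 2.93 for si:dkey-183i3.5, for which no role is given: 10.04, 9.84 and 9.38 in replicate 2 and 5.91 to 8.12 with a median of 6.49 in the others. It was the only one of the 121 genes also called between replicates 3 and 1 (change -1.66, adjusted p = 0.0327), a difference that the main comparison counts as spread. The heart form of myosin binding protein C, mybpc3, changed by 2.72, the myosin light chain gene myl13 by 2.41, the actin-binding gene nexn by 2.14, and the genes of the muscle ubiquitin ligases trim55b, trim55a and trim63b by 2.13, 1.21 and 1.205. The genes aep1, ptgdsb.1, nme2b.2 and zgc:136930 rose by 2.34, 1.91, 1.89 and 1.85, each without overlap between the 3 arrays and the 6 others. The thioredoxin-interacting gene txnipb rose by 1.82, with 6.01, 7.11 and 6.53 against 4.01 to 5.45 and a median of 4.74. The probe set with the lowest p of all is annotated to 2 symbols and is not named. It read 7.16, 7.58 and 7.49 in replicate 2 and 4.41 to 5.02 in the 6 others (change 2.62, SE 0.14, adjusted p = 7.42e-05). Of 164 called probe sets, 136 had 1 symbol, 3 had several and 25 had none.

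**Figure D3:**
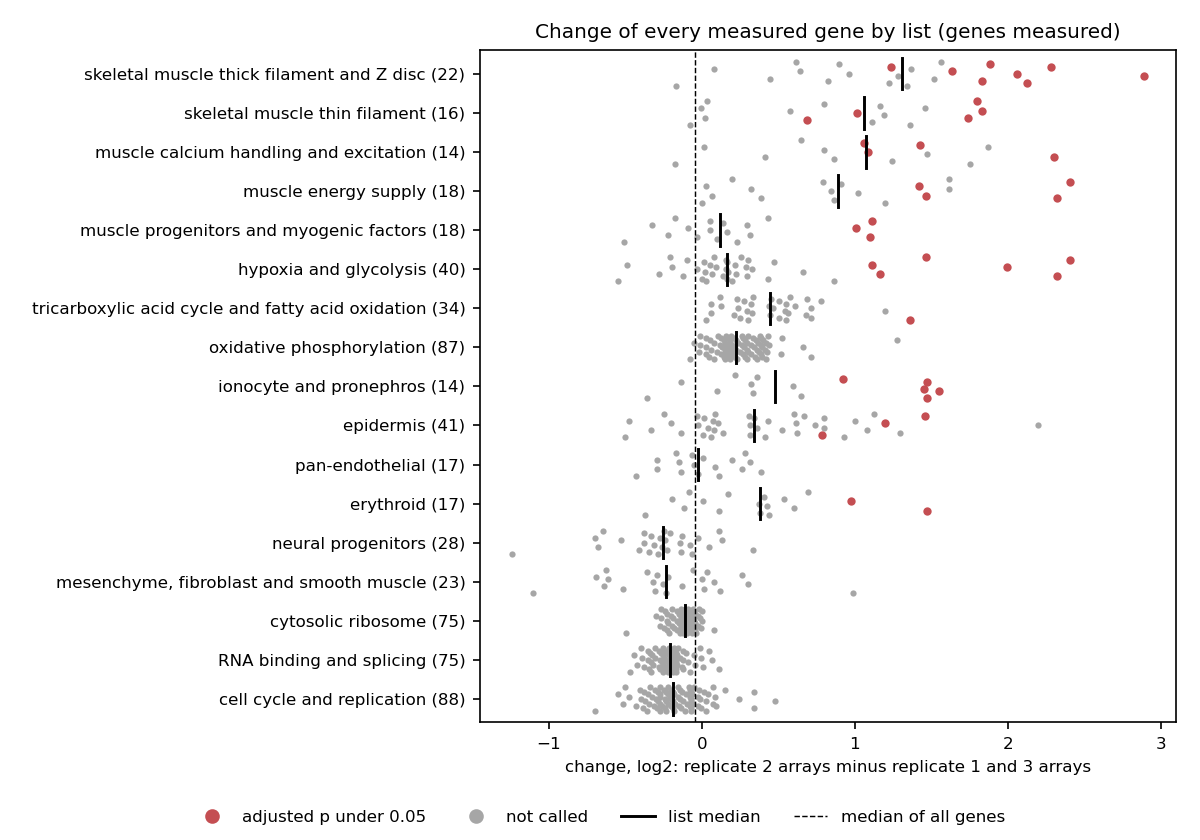
Change of every measured gene in 17 lists, on a log2 scale, as the replicate 2 arrays minus the replicate 1 and 3 arrays; red points have an adjusted p under 0.05, the solid bar is the list median and the dashed line the median of all genes (-0.04). Called genes lie to the right in the lists of muscle, glycolysis, ionocytes and epidermis, and no gene of the pan-endothelial, neural progenitor, ribosome or splicing lists is called.

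Of the 12 genes that fell, 1 is in a list (hand2, a heart gene) and 11 are in none. The endosialin gene cd248a, which codes for a surface glycoprotein of mesenchyme and perivascular cells, read 5.96, 6.0 and 6.32 in replicate 2, and 7.32, 7.80 and 8.32 as lowest, median and highest of the others. All 3 arrays were below the 6 others, and cd248a fell by 1.77 (SE 0.21, adjusted p = 0.012). Its paralogue cd248b read 5.08, 5.36 and 5.72 against 5.77 to 6.96 with a median of 6.55, also without overlap, and fell by 1.07 (SE 0.17, adjusted p = 0.0221). The secreted Wnt inhibitor gene sfrp1a, at 7.32, 6.87 and 6.69 against 7.82 to 8.29, fell by 1.03 (SE 0.16, adjusted p = 0.0221).

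Transcription factor genes of the pharyngeal arches and limb mesenchyme were among the rest. The basic helix-loop-helix gene hand2 read 7.28, 7.94 and 7.66 in replicate 2 and 8.31 to 9.40 with a median of 8.88 in the others, and fell by 1.27 (SE 0.25, adjusted p = 0.0493). The homeobox gene gsc, at 7.56, 7.31 and 7.36 against 8.05 to 9.26, fell by 1.19, and the homeobox gene dlx2a, at 5.80, 5.84 and 6.29 against 6.60 to 7.50, fell by 0.99. The mesenchymal cadherin gene cdh11 fell by 0.86 in its brightest probe set and by 0.77 in another that was also called. Other members were the chemokine gene ccl38a.5 (-0.84), the zinc finger gene znf576.1 (-0.72), LOC100126114 (-1.29) and si:dkey-286j15.1 (-1.85). In all 12 the 3 replicate 2 arrays were below the 6 others. The same 3 arrays had the highest muscle fibre scores, 0.535 to 0.844 against -1.004 to 0.134, and the part of this in the lower signals was not tested.

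**Figure D4:**
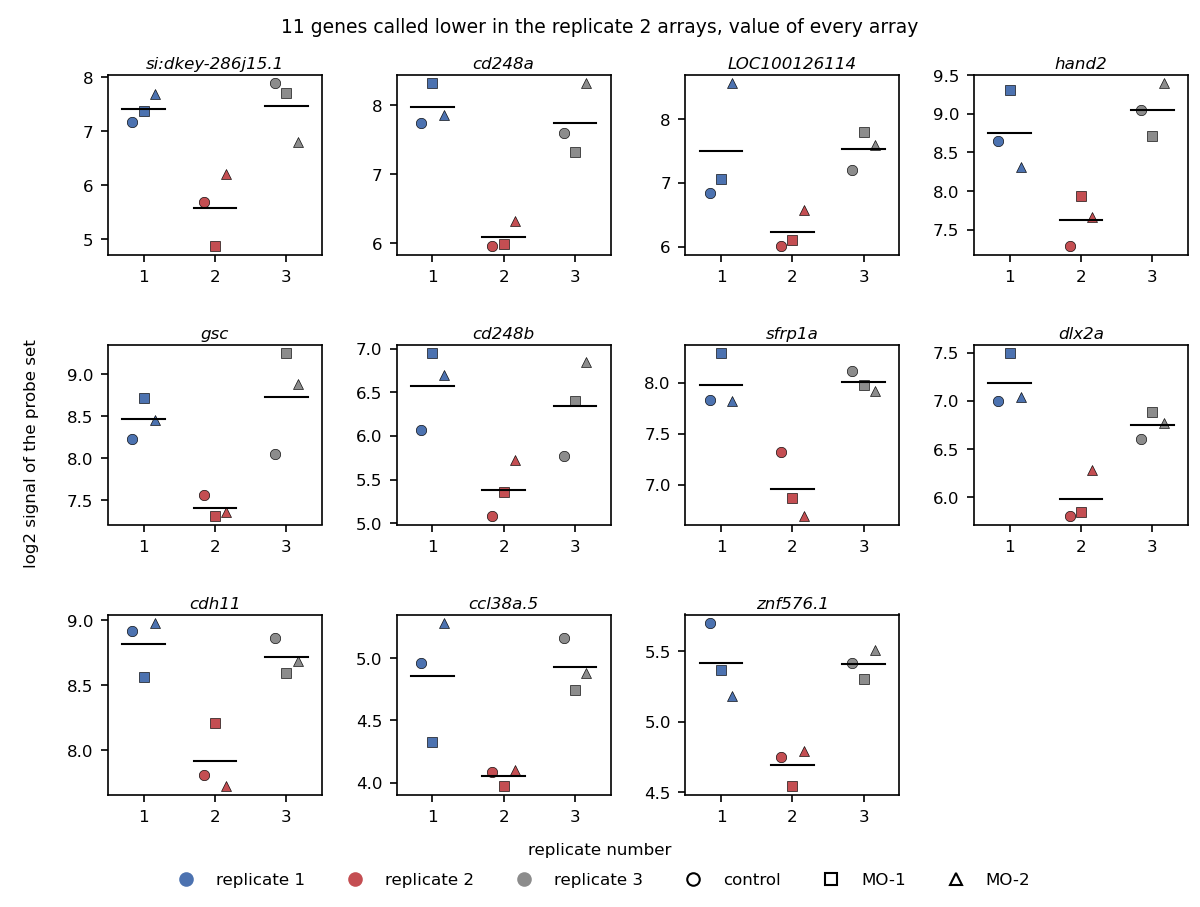
Log2 signal of 11 of the 12 genes called lower in the replicate 2 arrays, by replicate number; shape gives the treatment group and the bar the mean of 3 arrays. In each gene the 3 replicate 2 arrays lie below the other 6, and cd248a has a gap from 6.32 to 7.32.

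A list of 23 mesenchyme, fibroblast and smooth muscle genes, which holds none of these 12, had no call. Its median change was -0.24, and 16 of 23 changes were negative. The paired-related homeobox genes prrx1b and prrx1a had changes of -1.1 (adjusted p = 0.205) and -0.69 (0.339), the receptor-like gene pdgfrl by -0.64 (0.0615) and the forkhead gene foxc1b by -0.62 (0.075). With the block, pdgfrl and foxc1b were called, with adjusted p = 0.0425 and 0.0338. A second probe set of pdgfrl had a change of 0.00 (adjusted p = 0.999 without the block). The collagen genes col1a1a and col1a2 had changes of 0.12 and 0.03 and were not called.

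By a measure without a model, 327 genes (3.72% of 8793) had all 3 replicate 2 arrays above the 6 others and 281 (3.2%) had all 3 below. Among the 109 higher genes 94 were separated in this way, and all 12 lower genes were. These genes were called from the same 9 arrays, so their separation is a description and no further support. In the muscle fibre lists 42 of 70 genes lay above, against 3.72% of all genes, and none below. Of 88 cell cycle and replication genes 11 lay below and 2 above, of 75 splicing and RNA-binding genes 10 lay below and none above, and of 75 cytosolic ribosome genes 9 lay below and none above. No gene of these last 3 lists was called. Their median changes were -0.19, -0.21 and -0.11, beside -0.04 for all genes, and 71 of 75 splicing genes and 72 of 75 ribosome genes had a negative change. The array scores of the splicing list were -0.080, -0.233 and -0.109 in replicate 2 and -0.030 to 0.185 in the others.

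The sorted cell type's own markers showed no call. Of 17 pan-endothelial genes 8 had a positive and 9 a negative change, with a median of -0.02. The transgene's parent gene kdrl, which codes for a receptor of vascular endothelial growth factor, read 7.46, 8.11 and 7.88 in replicate 2 and 7.57 to 8.51 with a median of 7.71 in the others (change -0.05, 95% interval -0.443 to 0.34, adjusted p = 0.963). The receptor genes tek and tie1 had changes of 0.39 and 0.31, the transcription factor gene fli1 of -0.30 and the stem cell leukaemia gene tal1 of -0.43, and none passed. In none of the 17 genes did the 3 replicate 2 arrays all lie above or all below the 6 others. The control array of replicate 2 had the lower pan-endothelial score of its number, -0.211 against 0.088 and 0.128 for MO-1 and MO-2, and the control arrays of replicates 1 and 3 read -0.144 and -0.308. Arterial, venous and lymphatic, and blood progenitor lists had no call either, with medians of -0.10, -0.13 and -0.01. Another 13 lists had no call by their brightest probe sets, with medians between -0.19 and 0.21: myeloid, neurons, eye, neural crest, hatching gland, motile cilia, germ cells, ribosome biogenesis, endoplasmic reticulum stress, p53, histones, interferon and sterol synthesis. In the myeloid list the brightest probe set of spi1b, a transcription factor gene of the lineage, had a change of 0.57 (adjusted p = 0.638), while another was called with 1.11 (0.0196). The miR-126 target spred1 read 7.46, 7.67 and 7.86 in replicate 2 and 7.35 to 7.84 in the others (change 0.05, adjusted p = 0.947). Its further probe sets had changes of -0.14, -0.10 and 0.20 and were not called.

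Whether the shift of replicate 2 depended on the treatment was tested as an interaction of group and replicate 2. No probe set was called by limma's F test, 149 had an unadjusted p under 0.05 and the lowest adjusted p was 1.00. Each group has 1 replicate 2 array, so the test rests on the spread of the other arrays. For the 70 muscle fibre genes the median shift was 1.14 in the controls, 1.49 with MO-1 and 0.71 with MO-2. For aldoab it was 2.57, 2.95 and 1.70, and for cd248a it was -1.71, -1.82 and -1.76.

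Replicates 1 and 3 also differed from each other, and 1 of the 121 genes above was among those called. The main comparison counts the difference between replicates 1 and 3 as spread, so genes with a large one could hardly be among the 121. The GAPDH control probe sets, whose 3' to 5' difference is a sign of RNA quality, set replicate 3 (1.68 to 1.82) above replicates 1 and 2 (0.781 to 1.57). The 5' signals were 9.705, 9.68 and 9.29 in replicate 3, 9.38, 9.75 and 9.30 in replicate 1 and 9.80, 8.48 and 9.295 in replicate 2. The 3' signals were 11.53, 11.36 and 11.08 in replicate 3 and 10.05 to 10.82 in the 6 others. The wider difference in replicate 3 thus went with higher 3' signals and not with lower 5' signals. The 3' to 5' difference for acta1 did not set replicate 3 apart: it was 3.04, 3.23 and 3.11 there and 3.385, 3.46 and 2.64 in replicate 1. The part of RNA quality in the comparisons with replicate 3 was not tested. Between replicates 3 and 1, 210 probe sets (1.35%) were called in the 3-level fit, 56 higher and 154 lower in replicate 3. For scale, 251 (1.62%) were called between replicates 2 and 1 and 298 (1.92%) between replicates 2 and 3, which share the replicate 2 arrays. The muscle fibre genes had a median change of 0.89 from replicate 1 to 2, 1.32 from 3 to 2 and -0.20 from 1 to 3, with 19, 36 and none of 70 genes called.

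Several notochord and cartilage genes were low in replicate 1. The notochord factor gene tbxta read 8.03, 8.11 and 7.23 in replicate 2 and 7.69, 6.51 and 6.96 in replicate 3, but 4.69, 3.75 and 6.44 in replicate 1. Its change was 1.78 in the main comparison, which was not called (adjusted p = 0.473), 2.83 from replicate 1 to 2 (0.0289) and 0.74 from replicate 3 to 2 (0.522). The collagen genes col9a1b, col9a3, col11a2, col11a1a, col2a1a and col9a2 were also called between replicates 2 and 1, with changes of 1.48 to 3.06, and none of the 6 between replicates 2 and 3. Between replicates 3 and 1, col9a1b, col11a2, col9a2 and col8a1a were called.

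Neural progenitor genes were high in replicate 1. Their list score was 0.595, 0.323 and 0.289 in replicate 1, -0.250, -0.110 and -0.187 in replicate 2 and -0.164, -0.330 and -0.166 in replicate 3. Between replicates 3 and 1, 7 of 28 genes were called, all lower in replicate 3: the genes pou3f1 (-2.38), her4.2 (-1.92), otx2b (-1.65), dla (-1.29), pou3f2b (-1.28), pax6a (-1.20) and sox19a (-0.98). Of these, otx2b was also called between replicates 2 and 1 (-1.52), and none of the 28 between 2 and 3. In the main comparison 24 of 28 had a negative change, the median was -0.25 and none was called. The fatty acid binding gene fabp7a of radial glia had the largest change, -1.24 (adjusted p = 0.18).

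Replicate 3 held the highest values of the inducible chaperone gene hsp90aa1.2. It read 12.11, 11.56 and 11.05 in replicate 3, 9.998, 9.90 and 9.62 in replicate 2 and 9.99, 9.91 and 10.02 in replicate 1. A second probe set of hsp90aa1.2 had a change of -0.32 in the main comparison, against -0.93 for this one, and neither was called. The change of the brighter one was -1.73 from replicate 3 to 2 (adjusted p = 0.00407) and -0.13 from replicate 1 to 2 (0.886). Proteasome genes had a median of -0.29 from replicate 3 to 2 and -0.01 from replicate 1 to 2. Of 46, 1 gene, psmd12, was called between replicates 2 and 3 and also between 3 and 1. Over all probe sets 1.92% and 1.35% were called in these comparisons, so a single call is not a result about the list. Among immediate early and dissociation response genes 31 of 50 had a positive change with a median of 0.06 and none was called.

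**Figure D5:**
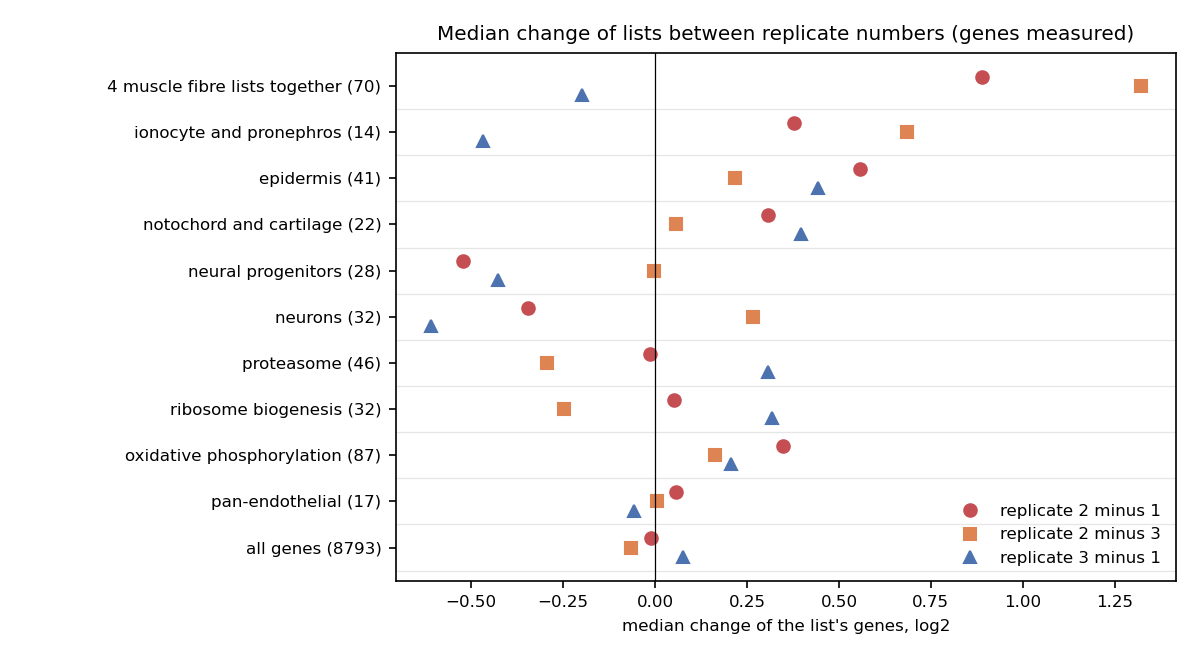
Median change of the genes of 10 lists and of all genes between replicate numbers, on a log2 scale, with the number of measured genes in brackets. The muscle fibre genes have positive medians for replicate 2 against both others (0.89 and 1.32), while neural progenitors and notochord and cartilage differ mainly between replicate 1 and the other numbers; the comparisons share arrays.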

How the data were processed

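The deposited values were log2 signals of 15617 probe sets on one-colour Affymetrix zebrafish arrays, which the authors had computed by RMA (robust multi-array averaging), per the submitters' processing notes. No RMA version was stated, and the values themselves show the log base. RNA had been extracted with Trizol and amplified with a NuGen kit for small inputs, per the labels' protocols. Precision is limited by how many arrays there are.

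The 115 control probe sets were left out, and 15502 were tested with no signal filter. Of these, 10795 had 1 symbol in the platform annotation, 135 had several and 4572 had none. limma 3.58.1 (R 4.3.3; lmFit, then eBayes) fitted linear models with an indicator for replicate 2 and the treatment group, on 9 arrays. The median SE was 0.168. Tests were two-sided, with Benjamini-Hochberg adjustment and a threshold of 0.05. Pairs of replicate numbers were contrasts of a 3-level replicate number.

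After group means were removed, same-number arrays (9 pairs) had correlations of 0.158 to 0.604. The 18 pairs that differed in both number and group had correlations of -0.407 to 0.0815. Removing group means by itself makes these pairs negative where same-number pairs are positive, so the gap between the ranges is no separate evidence. Because of the same-number correlations, the number was also used as a block. On simulated data of this comparison and 15502 probe sets, 22%, 64%, 92% and 96% of probe sets changed 1.5-fold, 2-fold, 3-fold and 4-fold were recovered, and 11 unchanged ones were called. The simulated noise was independent between arrays, without the correlation of same-number arrays. These figures therefore do not show recovery or false calls where arrays of a number share an effect.

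The 43 gene lists and the comparison were chosen with earlier results of these data known. Lists were matched by symbol, and the prefix lists for ribosomal proteins and translation factors leave out the kinases rps6k and eif2ak. The rule for named genes took up to 20 of the largest called changes in each direction, up to 4 members of each list and some endothelial genes, of which not all are printed. Other genes were named after their values were seen. Sequences, genome positions and 1 of the genes called lower are not reported here.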

Additional observations from a re-analysis of the deposited data

Results flagged for a closer look

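Among 255 genes examined, 12 had 1 array of the 6 in replicates 1 and 3 far from its neighbours, by Dixon's test at its 95% critical value. Chance flags about 1 in 20 such groups, so a count near this is not a result about the arrays. In MO-2 replicate 3, rbp4 read 8.76 (next array 7.45), pfkma 6.17 (5.51), cyp46a1.4 7.02 (6.43) and pdxka 4.59 (4.1), each the highest of the 6, and xbp1 read 9.30 (9.85), the lowest. In MO-2 replicate 1, cfap52 read 6.94 (6.03), got1 7.66 (7.03) and mat1a 4.79 (4.14), each the highest. In MO-1 replicate 3, hbae3 read 10.1 (12.6), the lowest, and phex 5.96 (5.58), the highest. In control replicate 1, crx read 6.99 (5.56), the highest, and rrs1 8.53 (8.80), the lowest. Among the genes called higher in replicate 2, rbp4, pfkma, cyp46a1.4, pdxka, got1, mat1a and phex are in this set.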

How the results depend on the processing

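The main comparison called 164 probe sets, 142 higher and 22 lower. With the replicate number as a replicate block of 3 levels it called 286 (246 and 40), against replicate 1 alone 384 (278 and 106), against replicate 3 alone 258 (211 and 47), with no group covariate 102 (83 and 19), with a signal filter at the median 78 (71 and 7), with array weights 750 (541 and 209) and from the morpholino arrays alone 1 (1 and 0). The share called higher, 86.6% in the main comparison, was 72.4% against replicate 1 alone and 72.1% with array weights. Median centring, quantile normalization and limma's trend and robust options gave 146, 142 and 166. Leaving out 1 array at a time gave 1 to 192 probe sets, 1 to 158 higher and 0 to 34 lower: 1 without control replicate 2, but 2 if the MO-1 array of that number was left out, 21 without MO-2 replicate 2, 70 without control replicate 3, 106 without MO-2 replicate 1, 108 without MO-2 replicate 3 and 89 without MO-1 replicate 1. Of the 121 called genes, 121 kept the call under the block and with array weights, 94 when control replicate 1 was left out, and 0 with the morpholino arrays alone, without the control array or without the MO-1 array of replicate 2, and none reversed under any alternative run. With the signal filter, replicate 2 against replicate 1 gave 117, replicate 2 against replicate 3 gave 182 and replicate 3 against replicate 1 gave 127, and for the last quantile normalization gave 130. Of 860 list medians recomputed, 19 moved by more than 1 SD; the cause was not tested.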
